A study of Homo sapiens with 6 samples.

Results

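The mitochondrial ribosomal protein genes encode the protein part of the ribosome that works inside mitochondria. They were chosen by name, as the protein-coding genes whose GENCODE symbol is MRPL or MRPS followed by a number and, in some, a letter A, B or C. This gave 78 of the 60675 genes in the count files, 49 with an MRPL symbol and 29 with an MRPS symbol. RNA was sequenced from MDA-MB-231 cells, an established human triple-negative breast cancer line. The 3 vitamin C libraries came from wells given 100 μM sodium ascorbate for 3 days, and the 3 control libraries from wells of the same line without it. RNA was depleted of ribosomal RNA, and 1 line at 1 dose and 1 time was measured. The comparison asks how vitamin C treatment changed the transcripts of these cells. The sources used here do not state whether the wells of a group came from separate experiments. The p-values thus measure spread among these wells only, and that spread may be technical.

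Mitochondria keep a small genome of their own, with 13 protein-coding genes, all for subunits of the respiratory chain and ATP synthase. A dedicated ribosome translates the mRNAs of these genes. The RNAs of that ribosome come from mitochondrial DNA, whereas every protein of it is encoded in the nucleus, made in the cytosol and imported. The large subunit forms peptide bonds and holds the exit tunnel, and the small subunit reads the mRNA. Many of its proteins descend from bacterial ribosomal proteins, and others were added in the course of mitochondrial evolution and have no bacterial counterpart. By structure, 30 of the 78 genes encode large-subunit proteins with a bacterial counterpart, 21 large-subunit proteins without one, 16 small-subunit proteins with a bacterial counterpart and 10 small-subunit proteins without one. MRPS18A and MRPS30 count with the large subunit in spite of their symbols, since their proteins sit there. MRPS18A and MRPS18B were classed without a bacterial counterpart, although their proteins are related to bacterial S18. MRPS36 was placed in no class, because its protein is a subunit of the 2-oxoglutarate dehydrogenase complex. The 78 genes lie on 21 chromosomes, with at most 8 on any of them.

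Counts assigned to genes ranged from 13434130 to 19553914 in the vitamin C libraries and from 17664345 to 22373591 in the control libraries. Unmapped read pairs made up 40.7%, 49.5% and 24.7% of vitamin C 1, 2 and 3, against 24.2%, 34.4% and 32.9% of control 1, 2 and 3. The part of depth and mapping in the results below was not tested. ESR1, the estrogen receptor, had no count in any library, and PGR, the progesterone receptor, was at 0 in 5 libraries and at 0.201 CPM in vitamin C 3. VIM, the intermediate filament of mesenchymal cells, was at 1256 ± 64.1 CPM in vitamin C cells and 1276 ± 45.3 CPM in control cells (SD, n = 3 each). Levels are TMM-scaled CPM, which are counts scaled to a common library size. Log2 fold changes put vitamin C over control and carry a standard error (SE). They come from the quasi-likelihood test of edgeR, with p-values adjusted by Benjamini-Hochberg over all 15261 genes tested, and a gene was called at an adjusted p under 0.05.

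All 78 genes passed the filter on low counts and were tested. By edgeR 3 of them fell after vitamin C, MRPS18B, MRPL19 and MRPL39, and none rose. Over all genes tested, 3.48% fell and 3.60% rose, so the 3.85% of the family that fell was near the background. DESeq2 also called these 3 genes, and over all genes 3.36% fell and 2.98% rose by both tools. At an unadjusted p under 0.05, 22 members (28.2%) were lower and 3 (3.85%) were higher, against 13.1% and 14.3% of all genes. DESeq2 alone gave an adjusted p to 74 members and called 11 of these (14.9%) lower and none higher, against 6.36% lower and 4.35% higher over all genes. Its further calls were MRPL18, MRPL21, MRPL22, MRPL24, MRPL30, MRPS6, MRPS10 and MRPS27. The fold changes were small, with 53 of 78 members within 0.25 of 0 on the log2 scale. So were 9787 of all 15261 genes tested and 8322 of the 11962 protein-coding genes among them.

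MRPS18B encodes a small-subunit protein, one of 3 human proteins related to bacterial S18. It had 12.2, 8.84 and 11.5 CPM in vitamin C 1, 2 and 3, against 18.7, 15.6 and 15.7 CPM in control 1, 2 and 3. The groups did not overlap, and control 1 was the highest and vitamin C 2 the lowest library. MRPS18B was 34.8% lower in vitamin C cells, a log2 fold change of -0.62 (edgeR: SE 0.14, adjusted p = 0.0274), from 122 to 352 counts a library. The promoters of the 3 called genes are printed here to show the DNA from which these transcripts start. Each is the 120 bases before the RefSeq start site, with the letters GCATGCGC in capitals, read on either strand, where they occur. Those letters are a core of sites bound by NRF1, a transcription factor known for nuclear genes of mitochondrial proteins.

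MRPS18B: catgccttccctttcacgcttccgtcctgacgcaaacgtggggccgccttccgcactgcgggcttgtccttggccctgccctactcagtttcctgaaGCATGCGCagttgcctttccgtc
MRPL19: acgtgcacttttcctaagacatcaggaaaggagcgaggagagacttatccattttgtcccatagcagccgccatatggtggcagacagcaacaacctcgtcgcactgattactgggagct
MRPL39: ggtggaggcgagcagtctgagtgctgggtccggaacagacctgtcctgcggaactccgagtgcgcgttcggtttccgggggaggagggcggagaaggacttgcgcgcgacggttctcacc

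On GRCh38.p14 these windows are chr6:30617720-30617839 on the plus strand for MRPS18B, chr2:75646663-75646782 on the plus strand for MRPL19 and chr21:25607482-25607601 on the minus strand for MRPL39. GENCODE 44 places the MRPS18B gene (ENSG00000204568) at chr6:30617840-30626395 and the MRPL19 gene (ENSG00000115364) at chr2:75646783-75690851. It places MRPL39 (ENSG00000154719) at chr21:25585656-25607517, so that by GENCODE its transcript begins within the printed window. Of the 3 windows, that of MRPS18B held the NRF1 letters, and no match in the other windows says only that these letters are not there.

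MRPL19, a large-subunit protein with a bacterial counterpart, had 71.3, 61.7 and 74.0 CPM in vitamin C 1, 2 and 3, against 92.9, 89.5 and 82.1 CPM in control 1, 2 and 3. Its transcripts were 21.6% lower after vitamin C, with a log2 fold change of -0.35 (edgeR: SE 0.09, adjusted p = 0.0378) and no overlap between groups. A lncRNA gene on the same strand covers 22.3% of its exon bases. MRPL39, a large-subunit protein without a bacterial counterpart, had 56.9, 58.2 and 58.9 CPM in vitamin C 1, 2 and 3, against 76.1, 72.0 and 66.9 CPM in control 1, 2 and 3. The vitamin C libraries lay close together and below every control library. MRPL39 was 19.0% lower, a log2 fold change of -0.30 (edgeR: SE 0.08, adjusted p = 0.0388).

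None of the 3 calls held with each library left out in turn, and such a fit has fewer libraries. MRPS18B passed without vitamin C 1, vitamin C 3 or control 3. Its edgeR adjusted p was 0.0537 when vitamin C 2 was left out, 0.111 when control 1 was and 0.0709 when control 2 was. MRPL19 and MRPL39 passed only without vitamin C 3 or control 3. With a library left out, the log2 fold change ranged from -0.703 to -0.499 for MRPS18B and from -0.408 to -0.280 for MRPL19. For MRPL39 it ranged from -0.357 to -0.263. The number of members that fell was 1 without vitamin C 1, 0 without vitamin C 2, control 1 or control 2, 4 without control 3 and 10 without vitamin C 3. The count over all genes moved as well, since 531 genes fell with every library and 157, 231, 958, 59, 61 and 388 fell without vitamin C 1, 2, 3 and control 1, 2 and 3 in that order.

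**Figure D1:**
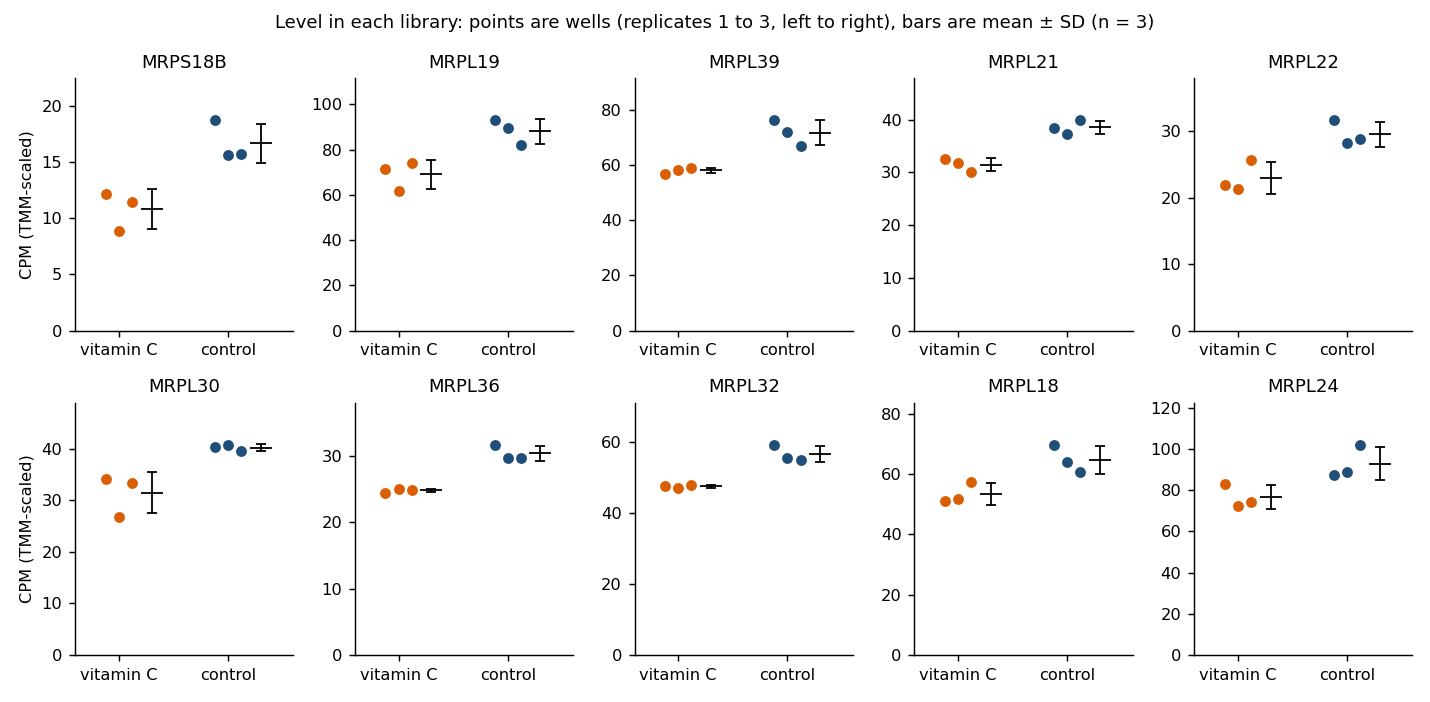
Level in CPM of the 10 members with the smallest edgeR p-values, with a point for each library (vitamin C left, control right) and bars for the mean ± SD of 3. In all 10 panels the 3 vitamin C libraries lie below the 3 control libraries, and only MRPS18B, MRPL19 and MRPL39 had an edgeR adjusted p under 0.05.

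The next 7 genes by p-value all encode large-subunit proteins with a bacterial counterpart, and none of them passed the edgeR threshold. MRPL21 had 32.5, 31.7 and 30.1 CPM in vitamin C 1, 2 and 3, against 38.4, 37.3 and 39.8 CPM in control 1, 2 and 3, with a log2 fold change of -0.29 (edgeR: SE 0.08, adjusted p = 0.0509). MRPL22, whose protein lines the exit tunnel, had 21.9, 21.3 and 25.6 CPM in vitamin C cells, against 31.6, 28.1 and 28.8 CPM in control cells. MRPL30 had 34.2, 26.9 and 33.3 CPM in vitamin C cells, against 40.4, 40.8 and 39.5 CPM in control cells, where the controls were the tighter group. MRPL36, a very small protein, had 24.5, 24.99 and 24.9 CPM in vitamin C cells, against 31.7, 29.7 and 29.6 CPM in control cells. In each of these genes the groups lay apart by library. The edgeR adjusted p was 0.0526 for MRPL22, 0.0530 for MRPL30 and 0.0554 for MRPL36.

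MRPL32, whose protein is matured by a protease of the inner membrane before it joins the ribosome, had 47.5, 47.0 and 48.0 CPM in vitamin C cells, against 59.2, 55.6 and 54.9 CPM in control cells. MRPL18 had 50.9, 51.6 and 57.4 CPM in vitamin C cells, against 69.6, 63.8 and 60.5 CPM in control cells. MRPL24 had 83.2, 72.2 and 74.6 CPM in vitamin C cells, against 87.5, 89.0 and 102 CPM in control cells. These 3 genes also showed no overlap between groups, at edgeR adjusted p of 0.0605, 0.0657 and 0.0698. Of the 10 genes with the smallest p-values MRPL21 was not matched to a promoter. MRPL22 and MRPL32 are shown because, among the rest of the 10, only they and MRPS18B held the NRF1 letters. In the longer promoters searched below, the letters also occurred for MRPL17, MRPL52 and MRPS18C, at log2 fold changes of -0.04, -0.23 and -0.12. The letters AAGATGGCG, bound by YY1 and described below, occurred there for MRPS18B, MRPL22, MRPL32 and MRPL36 of the 10 genes. For MRPS18B, MRPL22 and MRPL32 they lay outside the printed windows.

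MRPL22: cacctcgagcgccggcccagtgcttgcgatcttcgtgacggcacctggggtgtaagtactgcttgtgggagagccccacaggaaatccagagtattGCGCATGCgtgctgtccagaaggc
MRPL32: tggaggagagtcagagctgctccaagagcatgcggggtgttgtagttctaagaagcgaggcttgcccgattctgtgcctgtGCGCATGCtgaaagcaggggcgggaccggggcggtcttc

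The MRPL22 window is chr5:154940953-154941072 and the MRPL32 window chr7:42932256-42932375 on GRCh38.p14, both on the plus strand, and in both the capitals are the same letters read on the other strand.

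The family leaned downward as a whole. The fold change was below 1 in 57 members (73.1%), against 47.6% of all genes tested and 49.6% of protein-coding genes. The median log2 fold change of the members was -0.117, with quartiles of -0.251 and 0.010, beside a median of 0.015 over all genes and 0.002 over protein-coding genes. All 3 vitamin C libraries lay below all 3 controls in 30 members (38.5%), against a background of 16.6% of all genes tested. They lay above all 3 controls in 1 member (1.28%), MRPL23, against a background of 15.7%. Of the 30 separated genes, 27 did not pass edgeR's test, and all 30 were between 7.13% and 34.8% lower with a median of 16.4%. No p-value is given for the family as a list, because its members were examined with earlier results of these data known.

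Summed over the 78 genes, the level was 3630, 3683 and 3650 CPM in vitamin C 1, 2 and 3, against 4066, 3883 and 3917 CPM in control 1, 2 and 3. Each vitamin C library was below each control library, and the mean was 7.61% lower, at 3654 ± 26.9 CPM in vitamin C cells and 3955 ± 97.3 CPM in control cells (SD, n = 3 each). Large-subunit genes summed to 2259 ± 25.3 CPM in vitamin C cells and 2436 ± 66.2 CPM in control cells. Small-subunit genes summed to 1376 ± 2.74 CPM in vitamin C cells and 1500 ± 31.0 CPM in control cells. The ratio of large-subunit to small-subunit CPM was 1.63, 1.66 and 1.63 in vitamin C 1, 2 and 3, against 1.63, 1.604 and 1.63 in control 1, 2 and 3, and the groups overlapped. In bulk RNA, fewer cells with a transcript and less of it in each cell cannot be told apart.

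**Figure D2:**
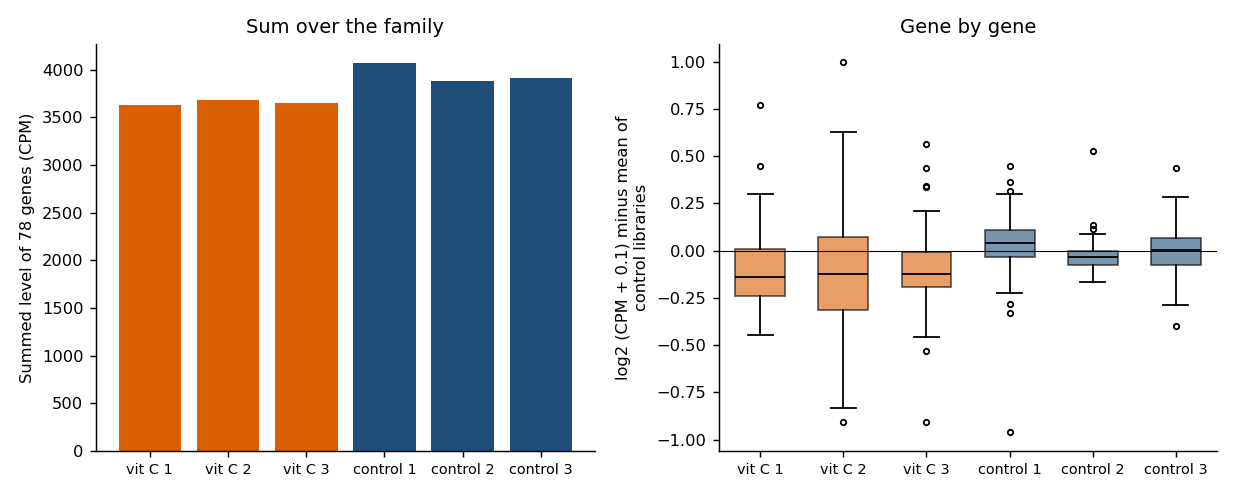
Left, CPM summed over the 78 genes in each library (vitamin C orange, control blue). Right, log2 (CPM + 0.1) of each gene minus the mean of the control libraries, as boxes of median and quartiles with whiskers to 1.5 interquartile ranges. The library medians were -0.137, -0.124 and -0.126 in vitamin C 1, 2 and 3, and 0.041, -0.033 and 0.001 in control 1, 2 and 3.

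All 4 structural classes had a negative median. It was -0.121 for large-subunit proteins with a bacterial counterpart, where 24 of 30 had a fold below 1, 15 lay apart below the controls, MRPL23 lay apart above them and MRPL19 fell. Large-subunit proteins without a counterpart had a median of -0.076, with 13 of 21 below 1, 5 apart below the controls and MRPL39 fallen. Small-subunit proteins with a counterpart had a median of -0.106, with 12 of 16 below 1, 4 apart below the controls and none called by edgeR. Small-subunit proteins without a counterpart had a median of -0.127, with 7 of 10 below 1 and 6 apart below the controls. Of these MRPS18B fell, whose protein is related to bacterial S18. In the same order of classes, DESeq2 called 6, 1, 2 and 2 genes lower, and 10, 5, 3 and 4 were lower at an unadjusted p under 0.05. Over all genes tested, 3.48% fell by edgeR, 16.6% lay apart below the controls and 15.7% above them. DESeq2 called 6.36% of all genes lower, and 13.1% were lower at an unadjusted p under 0.05. No difference between the classes was tested.

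**Figure D3:**
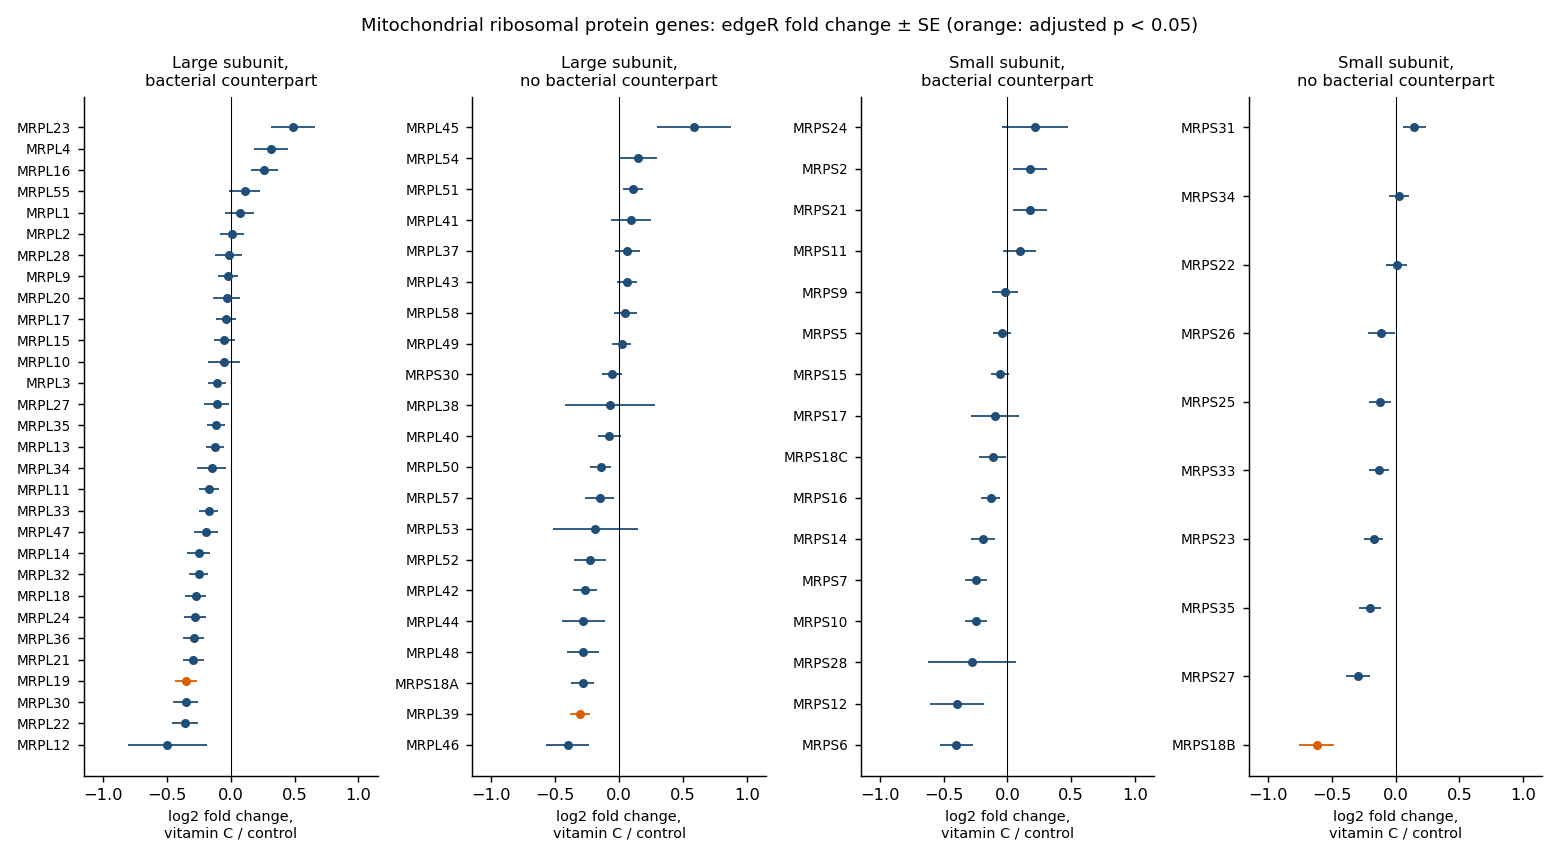
Fold changes (log2, vitamin C over control) ± SE for 77 genes in the 4 structural classes, with MRPS36 left out and genes called by edgeR in orange. The 3 orange points are MRPS18B at -0.62, MRPL19 at -0.35 and MRPL39 at -0.30, and in each class more points lie left of 0 than right of it.

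Levels differed far more between members than between groups. Per kilobase of exon in the canonical transcript, the mean level over the 6 libraries ran from 0.705 CPM for MRPL38 to 148.8 CPM for MRPL51. On this scale the transcripts of MRPL51, whose large-subunit protein has no bacterial counterpart, were followed by those of MRPL33 at 130.2 CPM per kb, MRPS10 at 117.7 and MRPL24 at 96.0. The order depended on the length used. Per kilobase of all annotated exons merged, MRPS10 came first at 117.7 CPM, MRPL51 was at 96.3, MRPL24 at 50.01 and MRPL33 at 43.2, and MRPL38 was lowest by either length, here at 0.2865. MRPL51 had 138, 144 and 134 CPM in vitamin C cells, against 123, 121 and 141 CPM in control cells, and the groups overlapped. MRPL33 had 60.7, 58.6 and 67.1 CPM in vitamin C cells, against 70.0, 68.6 and 71.9 CPM in control cells, which lay apart at an edgeR adjusted p of 0.172. MRPS10, a small-subunit protein that also exists in bacteria, had 223, 211 and 245 CPM in vitamin C cells, against 288, 268 and 248.7 CPM in control cells. Its log2 fold change was -0.25 (edgeR: SE 0.08, adjusted p = 0.0898), and DESeq2 called it at an adjusted p of 0.0461.

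Among small-subunit genes without a bacterial counterpart, MRPS22 and MRPS34 had the highest levels per kb of canonical transcript, at 86.8 and 56.6 CPM. Per kb of merged exons MRPS22 was at 6.38 CPM and MRPS34 at 51.8. MRPS22 was at 105 ± 10.49 CPM in vitamin C cells and 104 ± 0.408 CPM in control cells (SD, n = 3 each), and 26.6% of its exon bases face COPB2, at 387 CPM, on the other strand. MRPS34 was at 57.0 ± 1.58 CPM in vitamin C cells and 56.0 ± 3.81 CPM in control cells (SD, n = 3 each). The signs of their log2 fold changes, 0.01 for MRPS22 and 0.03 for MRPS34, turned with the processing. MRPS15, second to MRPS10 among small-subunit genes with a counterpart at 63.5 CPM per kb of canonical transcript but at 21.1 CPM per kb of merged exons, had a log2 fold change of -0.06. The groups overlapped in all 3 genes.

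The 3 genes related to bacterial S18 gave different values. Beside MRPS18B, MRPS18A, whose protein sits in the large subunit, had 24.2, 24.1 and 22.4 CPM in vitamin C cells, against 31.1, 27.3 and 27.8 CPM in control cells. The groups of MRPS18A lay apart, at a log2 fold change of -0.29 (edgeR: SE 0.09, adjusted p = 0.0751). MRPS18C had 44.5, 59.6 and 54.0 CPM in vitamin C cells, against 58.8, 60.2 and 52.5 CPM in control cells, with overlap. On the opposite strand, RSPH9, at 0.180 CPM, covers 60.6% of the exon bases of MRPS18A and ABRAXAS1, at 67.7 CPM, covers 83.6% of those of MRPS18C. The sources used here do not state whether reads were counted by strand, so reads of MRPS18C and ABRAXAS1 cannot be told apart. No difference between the 3 genes was tested.

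Of the other members chosen for their role, MRPL58, a peptidyl-tRNA hydrolase built into the large subunit, was at 38.7 ± 2.11 CPM in vitamin C cells and 37.4 ± 3.25 CPM in control cells. MRPS30 was at 72.9 ± 2.86 CPM in vitamin C cells and 75.9 ± 4.75 CPM in control cells. MRPS36, the dehydrogenase subunit, was at 19.2 ± 1.52 CPM in vitamin C cells and 20.5 ± 1.797 CPM in control cells. MRPS12, which belongs to the decoding centre, was at 2.69 ± 0.434 CPM in vitamin C cells and 3.55 ± 0.750 CPM in control cells (SD, n = 3 each in all 4 genes). The groups overlapped in each of the 4, and the edgeR adjusted p was 0.770 for MRPL58, 0.672 for MRPS30, 0.635 for MRPS36 and 0.255 for MRPS12. With 31 to 77 counts a library, MRPS12 was measured less firmly than most members.

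No member rose by edgeR or DESeq2, and the 3 that were higher at an unadjusted p under 0.05 were named after their values were seen. MRPL23, at the exit tunnel, had 7.19, 9.05 and 8.68 CPM in vitamin C cells, against 4.61, 6.04 and 7.11 CPM in control cells, with a log2 fold change of 0.49 (edgeR: SE 0.17, adjusted p = 0.0978). MRPL4, also at the tunnel, had 16.8, 20.6 and 14.7 CPM in vitamin C cells, against 14.3, 12.5 and 14.9 CPM in control cells. MRPL4 passed only when vitamin C 3 was left out (adjusted p = 0.0498 by edgeR). MRPL16 had 68.9, 96.1 and 78.03 CPM in vitamin C cells, against 70.1, 65.7 and 66.7 CPM in control cells, where vitamin C 2 was highest and vitamin C 1 lay among the controls. The highest fold of the family was that of MRPL45, which helps to hold the ribosome at the inner membrane. MRPL45 had 11.6, 13.5 and 9.18 CPM in vitamin C cells, against 3.42, 9.77 and 9.15 CPM in control cells, so control 1 stood apart and the log2 fold change of 0.59 (SE 0.29) had an edgeR adjusted p of 0.214. Without control 1 the log2 fold change of MRPL45 was 0.259, below those of MRPL23 (0.341), MRPL4 (0.336) and MRPL16 (0.288).

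A mean under 5 CPM was found in 8 members, most of which share exons with another gene. For 6 of the 78 genes, MRPL12, MRPL38, MRPL46, MRPL53, MRPS24 and MRPS28, at least 50% of the exon bases also belong to another gene on the same strand. These partners include URGCP-MRPS24, a read-through gene that covers 90.9% of MRPS24, and CCDC142, which covers 99.2% of MRPL53. The 6 genes had 0.705 to 4.17 CPM per kb with a median of 1.25, against a median of 31.7 CPM per kb for the other 72. The count files hold a line for reads that fit more than 1 gene, and whether these genes lost reads to it was not tested. MRPL12, which builds the stalk that recruits translation factors, had 0.964, 0.797 and 0.502 CPM in vitamin C cells, against 1.02, 1.02 and 1.04 CPM in control cells, from 10 to 23 counts a library. Its log2 fold change of -0.50 (edgeR: SE 0.31, adjusted p = 0.326) is therefore imprecise. MRPL38 had 0.741, 1.38 and 0.703 CPM in vitamin C cells, against 1.25, 0.977 and 0.696 CPM in control cells.

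Fold changes moved with base composition, in the family as in other genes. Split into 3 equal parts by the GC content of the canonical transcript, the median log2 fold change was -0.17 from 34.8% to 44.6% GC, -0.11 from 45.0% to 51.9% GC and -0.03 from 52.3% to 66.7% GC. In these parts 23, 20 and 14 of 26 members had a fold below 1, 15, 11 and 4 lay apart below the controls, and MRPL23, in the part of highest GC, lay apart above them. Protein-coding genes in the same GC ranges had medians of -0.05, -0.01 and 0.06, so in each range the family's median was lower. Of those genes 58.4%, 51.3% and 39.3% had a fold below 1, and 23.8%, 20.7% and 11.8% lay apart below the controls. In the same order of GC ranges, 12.7%, 15.2% and 19% of them lay apart above the controls. Across genes, which share the same 6 libraries and are not replicates, Spearman's rho between fold change and GC content was 0.26 over the 78 members and 0.21 over 11962 protein-coding genes. With offsets for GC content and transcript length in the fit, 8 members fell and none rose, against 4.82% lower and 2.90% higher over all genes. The median was then -0.124 for the members and -0.020 for all genes tested.

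**Figure D4:**
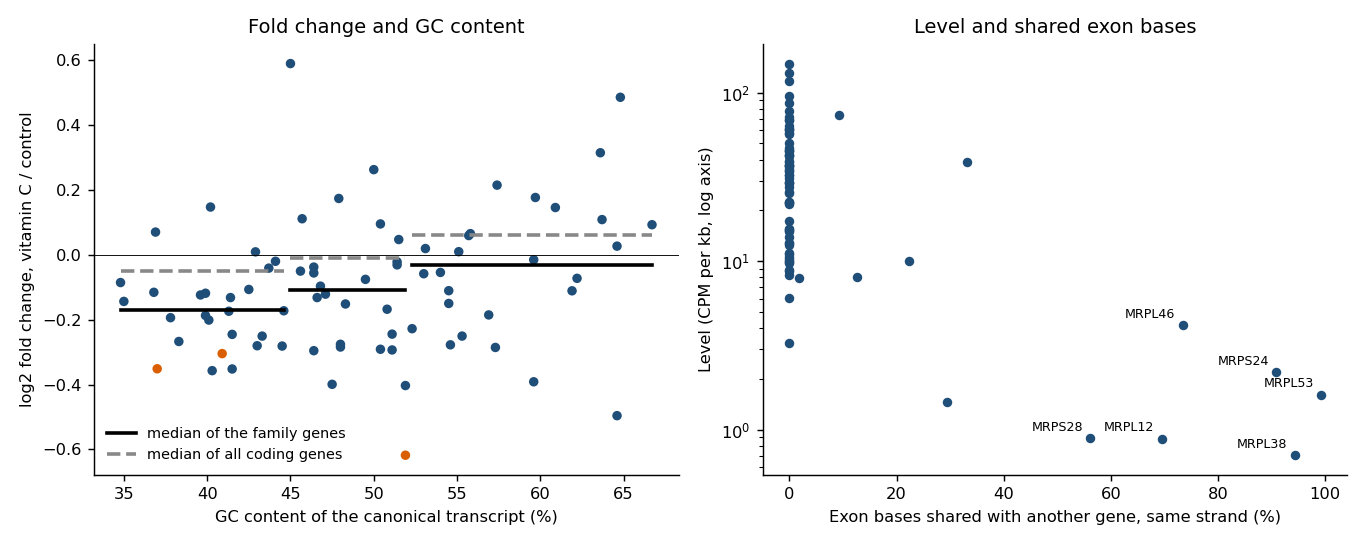
Left, log2 fold change of each member against the GC content of its canonical transcript, with the medians of the members (black) and of all protein-coding genes (grey, dashed) in 3 GC ranges and called genes in orange. Right, level in CPM per kb on a log axis against the share of exon bases that another gene covers on the same strand, where the 6 named genes at 50% or more lie between 0.705 and 4.17 CPM per kb.

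Promoter sequence from RefSeq, 250 bases before to 50 after the start site, was matched by symbol for 69 of the 78 genes and compared with 15842 protein-coding genes. Letters were searched on both strands, and matches that overlap were each kept. GCATGCGC, for NRF1, occurred in 6 member promoters (8.70%, against 4.26% of all). CCGGAAGT, bound by ETS factors such as GABPA, occurred in 11 (15.9%, against 6.19% of all). AAGATGGCG, which is bound by YY1 and can also serve as a translation start element of short leaders, occurred in 13 (18.8%, against 2.74% of all), in 10 of them between 7 and 36 bases after the start site. The E-box CACGTG, bound by MYC and its partners, occurred in 6 (8.70%, against 8.88% of all). The median log2 fold change was -0.24 for members with the NRF1 letters and -0.11 for those without, -0.07 with and -0.14 without the ETS letters, -0.25 with and -0.11 without the YY1 letters, and -0.05 with and -0.13 without the E-box. MRPS18B, MRPL22, MRPL32 and MRPL52 held both the NRF1 and the YY1 letters, so those contrasts share genes. MRPL17 and MRPS18C held the NRF1 letters without the YY1 letters, at log2 fold changes of -0.04 and -0.12. All are descriptions of letters, and no difference between genes with and without them was tested.

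The cytosolic ribosome and the respiratory chain were set beside the members because their proteins work in translation or are built with the products of the mitochondrial ribosome. Of 85 cytosolic ribosomal protein genes tested, 26 fell, 2 rose and 57 did not pass, with a median log2 fold change of -0.190. All vitamin C libraries lay below all controls in 46 of the 85 (54.1%). Of 79 nuclear-encoded genes of the respiratory chain and ATP synthase, 13 fell, 1 rose and 65 did not pass, with a median of -0.158, and 36 (45.6%) lay apart below. By edgeR 30.6% of the cytosolic and 16.5% of the respiratory genes fell. The share was 3.85% of the mitochondrial ribosomal genes and 3.48% of all genes tested, and 16.6% of all genes lay apart below. A fold below 1 was found in 84.7% of the cytosolic and 72.2% of the respiratory genes, beside 73.1% of the mitochondrial ribosomal genes and 47.6% of all genes. The counts that fell among the cytosolic genes were 7, 11 and 27 with vitamin C 1, 2 or 3 left out, and 1, 1 and 17 with control 1, 2 or 3 left out. Among the respiratory genes they were 5, 5 and 23 with vitamin C 1, 2 or 3 left out, and 1, 1 and 11 with control 1, 2 or 3 left out. Over all genes tested, 1%, 1.47% and 6.21% fell with vitamin C 1, 2 or 3 left out. With control 1, 2 or 3 left out, 0.373%, 0.394% and 2.5% fell. The 3 families share the same 6 libraries, and no difference between them was tested.

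**Figure D5:**
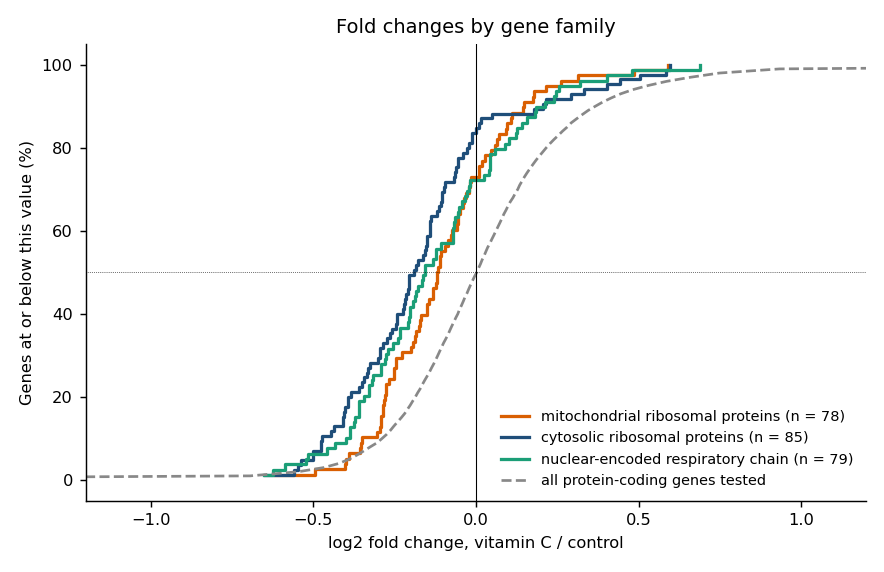
Cumulative share of genes (percent) against fold change (log2, vitamin C over control) for the 78 mitochondrial ribosomal protein genes (orange), 85 cytosolic ribosomal protein genes (blue), 79 respiratory chain genes (green) and all protein-coding genes tested (grey, dashed). The curves of the 3 families cross 50% at -0.117, -0.190 and -0.158, left of the 0.002 of all protein-coding genes.

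Called genes were also found around the ribosome, among factors for its assembly and for the mitochondrial genome. Over all genes tested, 3.48% fell and 3.60% rose by edgeR, the background for this and the lists below. By DESeq2 6.36% fell and 4.35% rose. At an unadjusted p under 0.05, 13.1% of all genes were lower and 14.3% higher. Of 26 assembly factors, with a median log2 fold change of -0.125, 3 (11.5%) fell and none rose by edgeR or DESeq2. At an unadjusted p under 0.05, 6 of them were lower and none was higher. GTPBP10, a GTPase of large-subunit assembly, had 42.0, 41.5 and 48.6 CPM in vitamin C cells, against 65.9, 61.0 and 56.8 CPM in control cells, a log2 fold change of -0.47 (edgeR: SE 0.09, adjusted p = 0.0184). MALSU1, which keeps an unfinished large subunit from joining the small one, had a log2 fold change of -0.38 (edgeR: SE 0.09, adjusted p = 0.0378). MRM2, a methyltransferase of the large ribosomal RNA, had one of -0.41 (edgeR: SE 0.10, adjusted p = 0.0375).

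SLIRP, an RNA-binding protein that protects mitochondrial mRNAs, was the 1 gene of 15 translation factors and mRNA-handling proteins that fell by edgeR, in a list with a median of 0.038. DESeq2 called 2 lower, the other being LRPPRC, the partner of SLIRP, at an adjusted p of 0.0305. SLIRP had 43.0, 35.5 and 44.7 CPM in vitamin C cells, against 80.6, 64.5 and 61.0 CPM in control cells, a log2 fold change of -0.74 (edgeR: SE 0.12, adjusted p = 0.00960). TFAM, which packs mitochondrial DNA and starts its transcription, had 174, 159.7 and 179 CPM in vitamin C cells, against 251, 221 and 211 CPM in control cells, a log2 fold change of -0.41 (edgeR: SE 0.08, adjusted p = 0.0220). TWNK, the mitochondrial DNA helicase, fell with a log2 fold change of -0.36 (edgeR: SE 0.09, adjusted p = 0.0406), and its gene faces 13.1% of the exon bases of MRPL43 on the other strand. These 2 were the genes that fell among 12 for mitochondrial transcription and DNA maintenance (median -0.093), and none rose by edgeR or DESeq2, with 1 higher at an unadjusted p under 0.05. Of 21 aminoacyl-tRNA synthetases and amidotransferase subunits, which load mitochondrial tRNAs and had a median of 0.023, GATB rose and MARS2 fell, with log2 fold changes of 0.47 (edgeR: SE 0.10, adjusted p = 0.0279) and -0.55 (edgeR: SE 0.14, adjusted p = 0.0388). By edgeR the share that fell was 6.67% of the translation list, 16.7% of the transcription list and 4.76% of the synthetase list, beside 3.48% of all genes. SLIRP passed with any single library left out. Without control 1 or without control 2, SLIRP was the only gene of all these lists that fell, whereas 7 fell with every library. GATB no longer passed in either case, at edgeR adjusted p of 0.114 and 0.0970. The number that fell was 1, 3 and 9 with vitamin C 1, 2 or 3 left out and 4 with control 3 left out. Over all genes the share that fell moved as well, from 3.48% with every library to 1%, 1.47% and 6.21% without vitamin C 1, 2 or 3. It was 0.373%, 0.394% and 2.5% without control 1, 2 or 3.

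Of 5 further proteins of the mitochondrial ribosome that carry other names, DAP3 and PTCD3 among them, none was called by edgeR or DESeq2 or had an unadjusted p under 0.05. All 5 had a fold below 1, with a median log2 fold change of -0.085. Of 10 genes for regulators of mitochondrial biogenesis (median -0.044) none was called by edgeR or DESeq2 or passed at an unadjusted p under 0.05. NRF1 was at 11.7 ± 0.710 CPM in vitamin C cells and 13.2 ± 0.412 CPM in control cells (SD, n = 3 each), with no overlap and an edgeR adjusted p of 0.318. The 13 mitochondrial genes whose mRNAs this ribosome translates had a median log2 fold change of 0.481, and by edgeR 1 rose, MT-ND5, which belongs to complex I of the respiratory chain. DESeq2 called 3 higher, MT-ND3, MT-ND4 and MT-ND5, and 10 of the 13 were higher at an unadjusted p under 0.05. MT-ND5 had 654, 697 and 442 CPM in vitamin C cells, against 312, 371 and 432 CPM in control cells, a log2 fold change of 0.68 (edgeR: SE 0.16, adjusted p = 0.0316). It did not pass when control 1, control 2, vitamin C 1 or vitamin C 2 was left out (adjusted p between 0.0684 and 0.131 by edgeR). Transcripts of the mitochondrial genome made up 1.82%, 1.77% and 1.12% of gene counts in vitamin C 1, 2 and 3, against 1.05%, 1.202% and 1.153% in control 1, 2 and 3, so vitamin C 3 lay within the range of the controls.

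Receptor and luminal markers and mesenchymal markers were examined beside the family. The summed level of ESR1, PGR, ERBB2, GATA3, KRT19 and CDH1 was 200.2 to 225 CPM in vitamin C libraries and 136 to 188 CPM in control libraries, most of it from KRT19. KRT19 was at 151 ± 14.3 CPM in vitamin C cells and 119 ± 24.96 CPM in control cells, and ERBB2 at 48.1 ± 3.02 CPM in vitamin C cells and 40.3 ± 1.35 CPM in control cells (SD, n = 3 each). Of the 4 of these that were tested edgeR and DESeq2 called none, and 4 were higher at an unadjusted p under 0.05. The largest log2 fold change among them was that of CDH1, at 1.33 (edgeR: SE 0.50, adjusted p = 0.113). CDH1 was at 3.89 ± 2.58 CPM in vitamin C cells and 1.57 ± 0.925 CPM in control cells (SD, n = 3 each). The summed level of VIM, CD44, AXL, CAV1, FN1 and ZEB1 was 4514 to 4811 CPM in vitamin C libraries and 4329 to 4414 CPM in control libraries. FN1, fibronectin, rose, at 557 ± 75.6 CPM in vitamin C cells and 318 ± 52.2 CPM in control cells (SD, n = 3 each, adjusted p = 0.00909 by edgeR). CD44 was at 1143 ± 173 CPM in vitamin C cells and 962 ± 41.7 CPM in control cells (SD, n = 3 each), and did not pass (adjusted p = 0.144 by edgeR). VIM, AXL, CAV1 and ZEB1 had folds below 1 and did not pass. At an unadjusted p under 0.05, 2 genes of this list were higher and 1, CAV1, was lower. The part of either list in the family's values was not tested.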

How the data were processed

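Total RNA of 6 MDA-MB-231 wells (3 vitamin C, 3 control) was depleted of ribosomal RNA and sequenced. The submitters' processing notes name CASAVA 1.4, Trim Galore, STAR and build hg38. For every library, the authors deposited unnormalized read counts per Ensembl gene. The STAR version, annotation release and strand setting were not given in the sources used here. Summary lines (unmapped, multimapping, unassigned and ambiguous reads) held 50.6% to 69.7% of read pairs and entered neither library sizes nor tests. A deposited table of all 6 libraries held identical counts. Groups came from the sample titles.

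Symbols, biotypes and positions came from GENCODE 44 on GRCh38, which held 56558 of 60675 identifiers (93.2%). Counts were tested in R 4.3.3 with edgeR 4.0.16 (TMM, filterByExpr with a minimum count of 10, quasi-likelihood test) on the whole table, and with DESeq2 1.42.0. limma 3.58.1, other normalization factors and filters, GC and length offsets (loess, span 0.5), a replicate block and each library left out were alternatives, extended to the other gene lists, the 2 comparison families, the separation by library and the summed level after the data were seen. The biological coefficient of variation was 9.40%. Between replicates, counts differed beyond sampling noise (chi-square over its degrees of freedom 4.54 to 21.6). Same-numbered wells did not deviate together (r of -0.021, -0.088 and -0.048 over 15261 genes), so the numbers were not taken as pairs. Between wells of different numbers r lay between -0.056 and 0.128. The code was tested on simulated data.

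The members and gene lists were chosen with earlier results of these data known. Genes named are the members called by edgeR and the next by p-value up to 10, the 2 most abundant per kb in each class, members picked for place or role (MRPS18A, MRPS18B, MRPS18C, MRPS30, MRPS36, MRPL12, MRPL58, MRPS12), those with the largest rise, largest fall and lowest level, and up to 3 called genes in each other list. MRPL23, MRPL4 and MRPL16 were named after their values were seen. In the other lists, the most abundant gene was taken where edgeR called none. Further uncalled genes of those lists, NRF1 among them, were named outside this rule. Promoter sequences came from a RefSeq table on GRCh38.p14.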

Additional observations from a re-analysis of the deposited data

How the results depend on the processing

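The 3 members that fell by edgeR numbered 6 among protein-coding genes only, 12 with no filter on low counts (1 higher, MRPL45), 11 by DESeq2 alone and 8 with GC and length correction. Over all genes 4.46%, 3.45%, 6.36% and 4.82% were lower in these settings, beside 3.48%. These shares are of unlike numbers of genes, namely 11962, 33769, 13472 and 15261, beside 15261. With no filter the genes added had low counts, and 1166 genes of the whole table were lower, beside 531. The members lower by both tools numbered 5 among protein-coding genes only and 11 with no filter. With the replicate block 1 member fell by edgeR and 1 by both tools, and 1 fell with the block and the GC and length correction together. MRPS18B was that gene, and the replicate block gave MRPL19 an adjusted p of 0.0571 and MRPL39 one of 0.0732. The log2 fold changes of MRPL19 and MRPL39 were -0.354 and -0.303 with the block, beside -0.352 and -0.305 without it. Over all genes 2.21% were lower by edgeR with the block and 3.03% with the block and the correction together, beside 3.48%. Whether the numbers pair the wells is not stated in the sources used here. With each library left out in turn, the members lower ranged from 0 to 10, those lower by both tools from 0 to 10 and those higher from 0 to 1 (MRPL4, without vitamin C 3). The share of all genes lower by edgeR then ranged from 0.373% to 6.21%. The median log2 fold change of the members ranged from -0.149 to -0.092 with a library left out, was -0.080 with upper-quartile factors and kept its sign under every alternative run. Upper-quartile factors also turned the 549 higher and 531 lower genes over the whole table into 687 higher and 377 lower. RLE factors gave 4 members lower and limma-voom gave 3, with 3.66% and 3.28% of all genes lower. The summed level was 5.17% lower in vitamin C cells with upper-quartile factors, beside 7.61%, and 25 members lay apart below the controls, beside 30. The count of 13 respiratory chain genes that fell became 23 with no filter, 24 by DESeq2 and 8 with the replicate block, and ranged from 1 to 23 with a library left out. The count of 26 cytosolic ribosomal protein genes became 16 with the replicate block, lay between 18 and 37 in the other settings with all libraries and ranged from 1 to 27 with a library left out. The count of 7 in the other lists ranged from 5 to 10 with all libraries and from 1 to 9 with a library left out. Among the genes of those lists that were called, TWNK did not pass with upper-quartile factors or the block and MALSU1 did not with the block. These alternatives for other families, lists and summed levels were chosen after seeing the data. The count by both tools was not computed for the settings with GC and length correction.

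The sign of MRPS22 turned to -0.014 with no filter, -0.007 by DESeq2, -0.001 with GC and length correction and -0.005 with that correction and the block, and ranged from -0.039 to 0.090 with a library left out. MRPS34 was at -0.072 with GC and length correction, with or without the block, and ranged from -0.028 to 0.063 with a library left out. MRPL38 ranged from -0.425 to 0.132 and MRPL58 from 0.000 to 0.116, likewise with a library left out. Over the 28 members named, 392 of 448 values kept direction and side of the threshold, 27 came to pass, 16 no longer passed and 13 turned sign. The causes were not tested. Members with few counts, such as MRPL12, MRPL38, MRPL53 and MRPS28, cannot show changes of the size seen in the rest of the family.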
